A study of Mus musculus with 8 samples.

Results

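Chemokines are small secreted proteins that steer the movement of leukocytes, and their receptors are G protein-coupled receptors on the cells they attract. The genes described here are the rows of the count table whose symbols name a CC, CXC, XC or CX3C chemokine ligand, a CC, CXC or XC chemokine receptor, or an atypical chemokine receptor. The table held 60 such rows of 27133, of which 4 are left out, so 56 members remained: 37 ligands and 19 receptors. RNA came from C57BL6J mouse pups, from the parietal bone that forms part of the cranial vault. Pups received antibody transcranially at postnatal day 2, 4 and 6 and were perfused, and their bone taken, on day 9. There were 4 libraries from pups given an isotype control antibody (isotype 2, 3, 4 and 5) and 4 from pups that received a CSF1R-blocking antibody (anti-CSF1R 7, 8, 9 and 10). CSF1R is the receptor on which macrophages, monocytes and osteoclasts depend for survival and differentiation, and the treatment was meant to deplete myeloid cells. Whether every library is its own pup is not stated, so the p-values reflect how much these libraries vary, which may be technical variation.

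Chemokines are classed by the spacing of their first cysteines, as CC, CXC, XC or CX3C. Inflammatory ligands such as Ccl2 are induced in injured or infected tissue, whereas homeostatic ligands such as Ccl25 are made constantly and place cells within organs. Atypical receptors bind chemokines without activating G proteins and remove them from the surroundings. In bone, CC ligands and their receptors are carried by osteoclasts and their precursors as well as by leukocytes.

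Total counts per library ran from 57496279 to 69118931. Levels are given as CPM (counts scaled to a common library size, listed in the order isotype 2, 3, 4, 5 and anti-CSF1R 7, 8, 9, 10), that is, per 1000000 counts of a TMM-scaled library, and fold changes as log2 values of anti-CSF1R minus isotype. Isotype 3 and 4 stood apart from the other 6 libraries. Across genes, their Spearman correlation ranged from 0.916 to 0.943 with those 6 libraries, which correlated at 0.987 to 0.997 with each other, and GC-rich transcripts were over-represented in both (Spearman correlation of GC content with the deviation from the median library, across genes, 0.654 and 0.643, against -0.385 to -0.0291 in the others). Results are therefore also given with isotype 2 and 5 only. Osteoblast markers (9 genes), which mark the labelled tissue, summed to between 95550 and 163269 CPM. Of 12 osteoclast markers, 9 were called lower with anti-CSF1R and 0 higher, and their sum was 5963 to 13795 CPM under isotype and 2278 to 3061 CPM under anti-CSF1R. Of 13 tested macrophage markers, 8 were called lower and 0 higher, with a sum of 572 to 1008 and 221 to 276 CPM. Vsig4, a macrophage marker too low to test, was at 0 in every anti-CSF1R library and in isotype 2, and no osteoclast marker was at 0. In bulk bone, fewer cells of a type and less RNA per cell cannot be told apart.

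Blocking CSF1R was followed by lower RNA of Ccl9, a CC chemokine made by osteoclasts and myeloid cells, and of Ccr1, the receptor it binds. These were 2 of 30 members with enough counts to test, and 0 members rose (edgeR quasi-likelihood test, Benjamini-Hochberg adjusted p under 0.05 over 17028 genes). Over all genes tested, 0.822% were called lower and 0.0235% higher. At an unadjusted p under 0.05, 7 members were lower and 2 higher, beside 12.6% and 5.26% of all genes. DESeq2 called 7 members lower and 0 higher, against 3.69% and 0.869% of all genes. Without anti-CSF1R 7, 8 or 9 edgeR called 0 members, and it called 0, 0 and 4 genes of the whole table in those fits (0%, 0% and 0.0232%). At an unadjusted p under 0.05 there were 8, 10 and 9 members in them, beside 11%, 9.29% and 9.15% of all genes. It called 1 member, Ccr1, without anti-CSF1R 10, isotype 3 or isotype 4, beside 0.0813%, 0.614% and 0.203% of all genes, and 1 with library size alone, beside 0.576%. The median log2 fold change of the 30 members was -0.28, beside 0.03 over all genes tested. The other 26 members were too low to test. Their highest count in any library was 116, 3 of them (Ccl1, Ccl20 and Ccl21d) had no count in any library, and 8, those 3 included, had at most 3 counts in every library. The detection floor used here, 3 counts, was 0.0396 to 0.0573 CPM depending on the library. It takes 1 count as 1 fragment and allows for counting error alone. Where 1 fragment stands as 2 counts, as may be so here, this floor is too low.

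**Figure D1:**
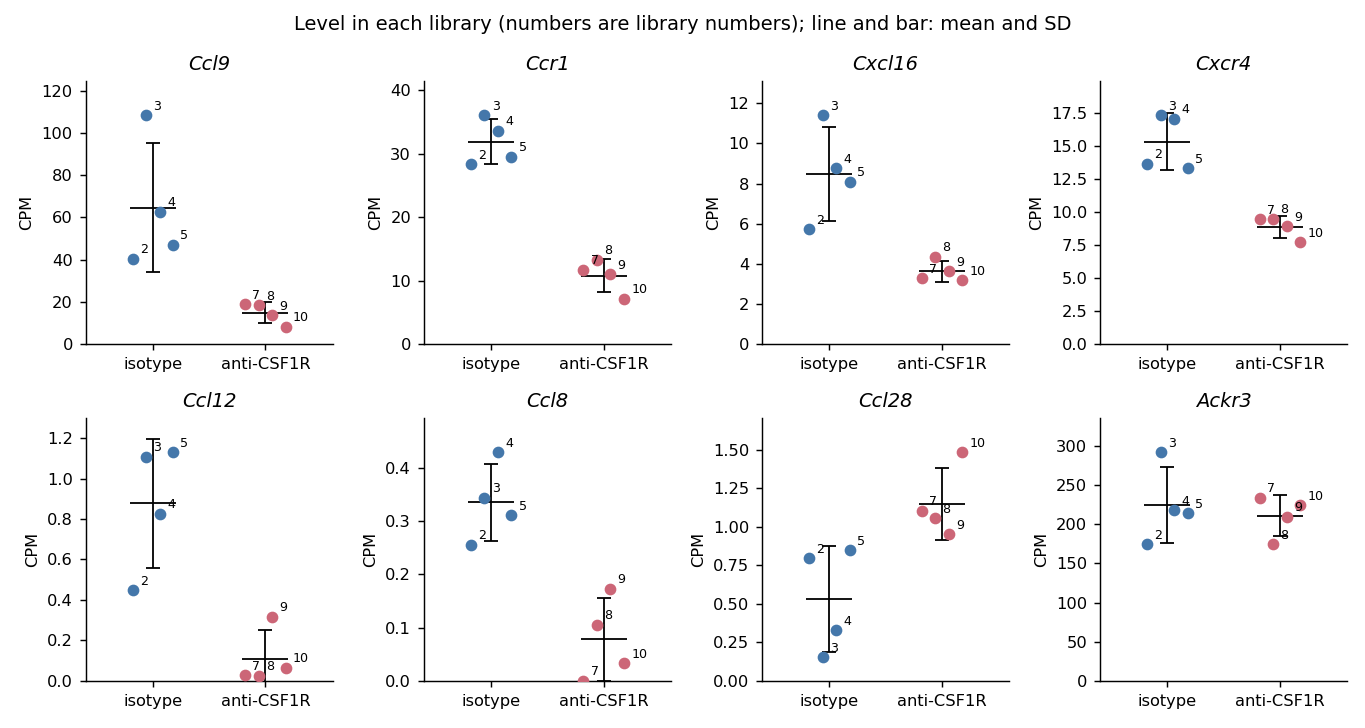
CPM of 8 chemokine genes in each of the 4 isotype (blue) and 4 anti-CSF1R (red) libraries, numbered as in the text, with the mean (line) and SD (bar) of each group. Ccl9, Ccr1, Cxcl16, Cxcr4, Ccl12 and Ccl8 are lower in every anti-CSF1R library than in any isotype library, Ccl28 is higher, and Ackr3 overlaps between the groups.

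Ccl9 encodes MIP-1 gamma, a ligand that attracts myeloid cells. Its level was 40.5, 108, 62.6 and 47.0 CPM in isotype 2, 3, 4 and 5 and 19.0, 18.4, 13.6 and 8.32 CPM in anti-CSF1R 7, 8, 9 and 10. The groups did not overlap, isotype 3 was the highest library and anti-CSF1R 10 the lowest. Ccl9 fell 4.35-fold, from 64.6 ± 30.5 to 14.9 ± 4.99 CPM (SD, n = 4), a log2 fold change of -2.12 ± 0.37 (SE) with an edgeR adjusted p of 0.0389. The call was lost when isotype 2 and 5 alone stood for the controls: log2 fold change -1.56, adjusted p 0.104 in edgeR. The call was also lost without isotype 3 (adjusted p 0.0570 in edgeR), isotype 4 (0.0931) or any of anti-CSF1R 7, 8, 9 and 10 (0.121, 0.117, 0.169 and 0.124). It was kept with an offset for GC content and transcript length (log2 fold change -2.78, adjusted p 0.0188 in edgeR). Over 17 alternatives the adjusted p ran from 1.52e-06 to 0.169. The transcript is 42.1% GC. The osteoclast and macrophage marker sums were likewise highest in isotype 3 and lowest in anti-CSF1R 10. The neutrophil, T and NK cell, megakaryocyte, mast cell, erythroid and dura fibroblast marker sums had the same highest and lowest libraries. The part of these cell types in the Ccl9 result was not tested.

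Ccr1, the receptor of Ccl9 and of several other inflammatory CC chemokines, is carried by monocytes, neutrophils and osteoclast precursors. It measured 28.3, 36.0, 33.6 and 29.5 CPM under isotype and 11.7, 13.3, 11.005 and 7.20 CPM under anti-CSF1R. No anti-CSF1R library came within a factor of 2 of the lowest isotype library, and anti-CSF1R 10 was again the lowest. The fall was 2.95-fold, from 31.9 ± 3.58 to 10.8 ± 2.59 CPM (log2 fold change -1.56 ± 0.20, adjusted p 0.0164 in edgeR). Ccr1 was also called with isotype 2 and 5 only (-1.42, adjusted p 0.019999 in edgeR) and with the offset (-2.30, adjusted p 0.00927 in edgeR). Without anti-CSF1R 7, 8 or 9 the log2 fold change was -1.60, -1.68 and -1.57 and the call was lost (adjusted p 0.0803 in edgeR, 0.0812 and 0.0870), in fits that called 4 genes of the whole table or fewer, and over its 17 alternatives the adjusted p lay between 4.05e-10 and 0.0870. Of the 10 neutrophil markers, a cell type that carries Ccr1, 0 were called by edgeR or DESeq2 and 0 had an unadjusted p under 0.05. Their summed level was 129 to 337 CPM under isotype and 118 to 335 CPM under anti-CSF1R, and their median log2 fold change was -0.55. Of the 8 monocyte markers, 0 were called by edgeR, 1 by DESeq2, and 1, which was higher, had an unadjusted p under 0.05 in edgeR. Their sum was 2403 to 3018 CPM under isotype and 2713 to 3094 CPM under anti-CSF1R, with a median log2 fold change of 0.14. The sum follows the most abundant genes of the list, which includes Fn1, a gene not limited to monocytes. The osteoclast and macrophage marker sums, given above, were lower in every anti-CSF1R library than in any isotype library. The part of any of these cell types in the Ccr1 result was not tested.

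The sequences before the start sites are shown for the pair that was called (Ccl9 and Ccr1), for Ccl6, which lies next to Ccl9, and for Cxcr4, which was called with isotype 2 and 5 only. Each is the 250 bases upstream of the RefSeq start on GRCm38.p6, 5′ to 3′ on the strand of the gene, and capitals mark the motif matches described after them. They are chr11:83578637-83578886 (minus strand) for Ccl9, chr11:83593088-83593337 (minus strand) for Ccl6, chr9:123968693-123968942 (minus strand) for Ccr1 and chr1:128592300-128592549 (minus strand) for Cxcr4.
Ccl9: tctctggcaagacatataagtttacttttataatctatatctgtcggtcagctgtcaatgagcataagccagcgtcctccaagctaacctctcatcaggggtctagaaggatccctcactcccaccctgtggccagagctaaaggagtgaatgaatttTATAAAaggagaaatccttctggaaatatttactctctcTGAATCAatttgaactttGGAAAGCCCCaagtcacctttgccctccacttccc
Ccl6: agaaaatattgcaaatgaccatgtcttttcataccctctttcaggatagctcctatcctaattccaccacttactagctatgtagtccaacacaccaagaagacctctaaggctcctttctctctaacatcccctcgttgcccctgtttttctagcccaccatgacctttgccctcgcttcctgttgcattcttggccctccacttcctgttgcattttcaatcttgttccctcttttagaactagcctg
Ccr1: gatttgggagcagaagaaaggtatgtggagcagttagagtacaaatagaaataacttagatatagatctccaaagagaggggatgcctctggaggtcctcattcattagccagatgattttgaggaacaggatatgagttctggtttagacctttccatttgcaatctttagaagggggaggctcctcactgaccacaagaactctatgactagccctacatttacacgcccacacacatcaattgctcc
Cxcr4: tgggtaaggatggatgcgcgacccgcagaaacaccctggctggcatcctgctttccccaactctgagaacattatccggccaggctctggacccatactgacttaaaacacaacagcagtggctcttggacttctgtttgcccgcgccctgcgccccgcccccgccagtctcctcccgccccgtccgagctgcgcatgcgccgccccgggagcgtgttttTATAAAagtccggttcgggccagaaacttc
RefSeq promoter windows were found for 43 of the 56 members. The motifs searched on both strands were TGANTCA of AP-1, GAGGAAGT of PU.1 and other ETS factors, the E-box pattern TCANNTGA and GGAAAA of NFAT. The NF-kB and interferon response element consensus motifs were also searched on both strands, and TATAAA, the TATA box, on the sense strand. TCANNTGA leaves its middle letters open, so it covers more than the sites of MITF and TFE factors. No overlapping matches of different motifs occur in the windows printed. The Ccl9 window held a TATA box that began 92 bases before the start, an AP-1 match (TGAATCA) 53 bases before it and an NF-kB match on the opposite strand (GGAAAGCCCC) 35 bases before it. The Cxcr4 window held a TATA box 30 bases before the start, and the Ccl6 and Ccr1 windows held none of these letters. Over all 32851 promoter windows of the same length, a TATA box stood in 7.59%, AP-1 in 6.75% and NF-kB in 14.9%, and among the 50 windows of members in 12, 6 and 14 windows. The shares of the PU.1, open E-box, NFAT and interferon motifs were 2.44%, 7.09%, 20.4% and 2.98% over all windows, and 1, 3, 11 and 3 windows of members held them. The E-box matches of members read TCAGCTGA in Ccl12 and Cxcl9 and TCACCTGA in Cxcr3. A match describes letters in the window and not a bound factor.

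Ccl9 was the member called among 7 tested CC ligands that act mainly on monocytes and macrophages. Of the 7, 6 had a log2 fold change below 0, and the median over all genes tested was 0.03. DESeq2 called 3 of the 7 (Ccl9, Ccl12 and Ccl8), beside 3.69% of all genes called lower. At an unadjusted p under 0.05 were those 3 and Ccl2, which was higher, beside 12.6% of all genes lower and 5.26% higher. Ccl6, a myeloid chemokine encoded next to Ccl9, measured 4.05, 7.25, 5.94 and 3.22 CPM under isotype and 3.60, 5.31, 4.10 and 1.95 CPM under anti-CSF1R. Those groups overlapped (log2 fold change -0.45 ± 0.35, adjusted p 0.371 in edgeR), and the value was 0.04 with isotype 2 and 5 only. Ccl12, a monocyte attractant of the MCP group, measured 0.447, 1.11, 0.826 and 1.13 CPM under isotype and 0.0283, 0.0264, 0.317 and 0.0660 CPM under anti-CSF1R. Its groups did not overlap, but anti-CSF1R 7 and 8 held 2 counts each, under the detection floor, and anti-CSF1R 9 held 22. The log2 fold change of Ccl12 was -2.98 ± 0.71 and missed the threshold (adjusted p 0.109 in edgeR). Without anti-CSF1R 9 it was -4.42 (adjusted p 0.0581 in edgeR). It passed with the offset (-3.33, adjusted p 0.0397 in edgeR) and with DESeq2 (-3.04), and over its 16 alternatives the adjusted p lay between 7.63e-04 and 0.321.

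Ccl8, another inflammatory CC ligand of macrophages, measured 0.255, 0.344, 0.429 and 0.311 CPM under isotype and 0, 0.106, 0.173 and 0.0330 CPM under anti-CSF1R. The groups did not overlap on 26 counts or fewer in any library (log2 fold change -2.06 ± 0.68, adjusted p 0.251 in edgeR), and DESeq2 gave an adjusted p of 0.0434. Without anti-CSF1R 9 the log2 fold change was -2.76 (adjusted p 0.278 in edgeR), in a span of 0.0434 to 0.486 for the 15 alternatives. Ccl2, the main monocyte attractant (MCP-1), had the opposite sign, measuring 0.223, 0.191, 0.363 and 0.763 CPM under isotype and 0.992, 0.555, 1.24 and 0.594 CPM under anti-CSF1R. Only isotype 5 overlapped the anti-CSF1R libraries (log2 fold change 1.11 ± 0.48, adjusted p 0.278 in edgeR). Of all 30 tested members, 6 were lower and 1 was higher with no overlap between the groups, beside 8.34% and 6.61% of all genes. The 6 were Ccl9, Ccr1, Cxcr4, Cxcl16, Ccl12 and Ccl8, and the member that was higher was Ccl28.

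**Figure D2:**
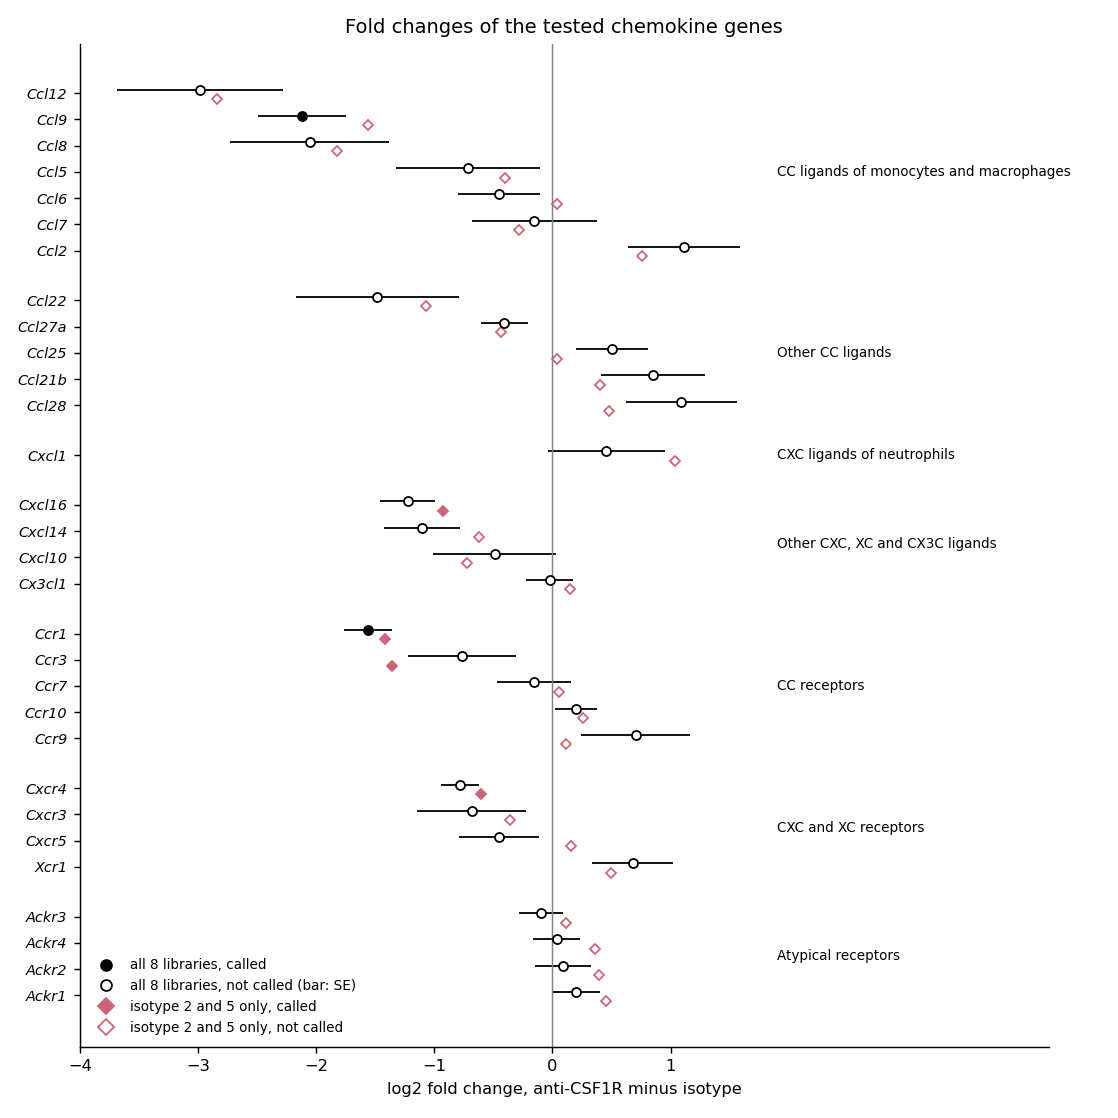
Log2 fold change of each of the 30 tested members, anti-CSF1R minus isotype, by role. Circles show all 8 libraries with their SE and diamonds isotype 2 and 5 only, filled where the edgeR adjusted p was under 0.05. Ccl9 (-2.12) and Ccr1 (-1.56) are called on all libraries, and Cxcr4, Ccr1, Ccr3 and Cxcl16 with isotype 2 and 5 only.

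The remaining CC ligands are mostly homeostatic or attract lymphocytes and eosinophils. Of 15, 5 were tested, with 0 called by edgeR or DESeq2. At an unadjusted p under 0.05 in edgeR there was 1, Ccl28, which was higher, beside 12.6% of all genes lower and 5.26% higher. Ccl25, the thymus and gut chemokine that binds Ccr9, measured 13.6, 5.69, 5.02 and 10.3 CPM under isotype and 11.7, 12.3, 12.1 and 12.9 CPM under anti-CSF1R. Isotype 3 and 4 were its lowest libraries, and the log2 fold change went from 0.50 ± 0.30 (adjusted p 0.310 in edgeR) to 0.04 with isotype 2 and 5 only. Ccl28, a mucosal chemokine that binds Ccr10, measured 0.798, 0.153, 0.330 and 0.848 CPM under isotype and 1.11, 1.06, 0.952 and 1.49 CPM under anti-CSF1R. Every anti-CSF1R library was higher, but the test was not passed (1.09 ± 0.47, adjusted p 0.278 in edgeR), and the value was 0.48 with isotype 2 and 5 only. Ccl27a, a skin chemokine that also binds Ccr10, stood at 2.96 to 3.38 CPM under isotype and 1.93 to 3.12 CPM under anti-CSF1R (-0.41 ± 0.20, adjusted p 0.281 in edgeR). Ccl21a, Ccl21b and Ccl21d are close copies, as are Ccl27a and Ccl27b, so the way counts are divided among them is uncertain.

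CXC ligands that attract neutrophils were low in this bone. Of 5 members 1 was tested, Cxcl1, at 0.0848 to 0.305 CPM under isotype and 0.106 to 0.317 CPM under anti-CSF1R (log2 fold change 0.45 ± 0.49, adjusted p 0.510 in edgeR). Cxcl5 had at most 28 counts and Cxcl2 at most 12 counts in any library, and Cxcl3 and Cxcl15 at most 2 and 8. Among the interferon-induced ligands of Cxcr3, Cxcl10 overlapped between the groups, and Cxcl9 was chosen for mention after its values were seen. Cxcl9 had 116 counts in isotype 5, against 4 to 8 in the other isotype libraries and 6 to 30 in the anti-CSF1R libraries, and did not pass the filter on all 8 libraries.

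Cxcl16, a membrane-bound CXC chemokine and scavenger receptor of macrophages, measured 5.71, 11.4, 8.75 and 8.09 CPM under isotype and 3.30, 4.36, 3.65 and 3.19 CPM under anti-CSF1R. The groups did not overlap, as for the summed markers of macrophages, osteoclasts, T and NK cells and dura and arachnoid fibroblasts. The part of these cell types in the Cxcl16 values was not tested. The log2 fold change of -1.23 ± 0.23 just missed the threshold (adjusted p 0.0516 in edgeR). It passed with DESeq2, with RLE factors and without a filter (adjusted p 6.51e-05, 0.0484 and 0.0489). In edgeR it also passed with isotype 2 and 5 only (-0.93, adjusted p 0.0246 in edgeR), with the offset (-1.16, adjusted p 0.0121 in edgeR) and without isotype 2 (-1.41, adjusted p 0.0221 in edgeR), and over its 17 alternatives the adjusted p lay between 6.51e-05 and 0.204. Of its exon bases in GENCODE M21, 18.3% are shared with Zmynd15 on the opposite strand, and the strand setting of the counts is not given in the sources used here. Cxcl14, a chemokine of epithelia and fibroblasts, measured 10.3, 12.9, 18.9 and 7.38 CPM under isotype and 4.76, 7.87, 6.35 and 3.99 CPM under anti-CSF1R. Isotype 5 lay below anti-CSF1R 8, and the log2 fold change was -1.10 ± 0.32 (adjusted p 0.190 in edgeR and 0.0211 in DESeq2). The dura and arachnoid fibroblast markers summed to 136 to 242 CPM under isotype and 109 to 117 CPM under anti-CSF1R, without overlap. Of the 6 tested, 0 were called by edgeR, 2 by DESeq2, and 3 had an unadjusted p under 0.05, 2 of them lower. Their part in the Cxcl14 values was not tested. Cx3cl1, fractalkine, which is made by endothelium and neurons, measured 7.12, 12.2, 10.3 and 10.8 CPM under isotype and 9.75, 10.6, 11.3 and 8.12 CPM under anti-CSF1R (-0.02 ± 0.20, adjusted p 0.937 in edgeR). Its receptor Cx3cr1 fell, as given with the pathway genes.

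Among the CC receptors 5 of 9 were tested, and Ccr1 was the member called. Ccr3, the eosinophil receptor that osteoclasts also carry, measured 2.51, 0.764, 0.925 and 2.73 CPM under isotype and 1.05, 1.16, 1.30 and 0.561 CPM under anti-CSF1R. Isotype 3 and 4 lay among the anti-CSF1R libraries and isotype 2 and 5 above all of them. The log2 fold change was -0.77 ± 0.46 on all libraries (adjusted p 0.308 in edgeR) and -1.36 with isotype 2 and 5 only (adjusted p 0.0363 in edgeR), and over its 17 alternatives the adjusted p lay between 0.0363 and 0.486. With isotype 2 and 5 only 4 of 36 tested members were called lower and 0 higher, against 2.38% and 0.679% of all genes. Ccr10, the receptor of Ccl27a and Ccl28, stood at 1.74 to 2.18 CPM under isotype and 2.00 to 2.49 CPM under anti-CSF1R (0.20 ± 0.18, adjusted p 0.423 in edgeR).

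Cxcr4, which holds haematopoietic stem cells and immature leukocytes in the marrow, measured 13.7, 17.3, 17.1 and 13.3 CPM under isotype and 9.46, 9.51, 8.94 and 7.73 CPM under anti-CSF1R. The groups did not overlap. The log2 fold change of -0.78 ± 0.16 missed the threshold on all libraries (adjusted p 0.0690 in edgeR) and passed with isotype 2 and 5 only (-0.60, adjusted p 0.0165 in edgeR) and with the offset (-0.95, adjusted p 0.0292 in edgeR). It also passed with DESeq2 (adjusted p 2.38e-04), and over its 17 alternatives the adjusted p lay between 2.38e-04 and 0.266. With the offset 5 of 30 members were called lower and 0 higher, against 2.34% and 0.587% of all genes. The 5 were Ccl9, Ccr1, Cxcr4, Cxcl16 and Ccl12. Of 9 B cell markers, a lineage that carries Cxcr4, 0 were called by edgeR or DESeq2 and 3 had an unadjusted p under 0.05, 2 of them lower. Their sum was 71.2 to 83.6 CPM under isotype and 71.4 to 93.9 CPM under anti-CSF1R, while their median log2 fold change was -0.42. The list includes Ebf1, a gene not limited to B cells. The marker sums of osteoclasts, macrophages, T and NK cells and dura and arachnoid fibroblasts were, like Cxcr4, lower in every anti-CSF1R library. Those of monocytes and neutrophils overlapped between the groups. The part of any of these cell types in the Cxcr4 values was not tested. Cxcr5, the follicular B cell receptor, stood at 0.721 to 1.97 CPM under isotype and 0.700 to 1.07 CPM under anti-CSF1R (-0.45 ± 0.34, adjusted p 0.363 in edgeR). Cxcr3, a receptor of activated T and NK cells, stood at 0.0958 to 0.344 CPM under isotype and 0.115 to 0.264 CPM under anti-CSF1R (-0.68 ± 0.46, adjusted p 0.333 in edgeR).

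The atypical receptors include Ackr3, the most abundant member in both groups, and 0 of 4 passed the threshold in edgeR or DESeq2 (0 at an unadjusted p under 0.05). Ackr3, a scavenger of CXC chemokines in mesenchyme and endothelium, measured 175, 292, 218 and 214 CPM under isotype and 234, 174, 210 and 224 CPM under anti-CSF1R. The anti-CSF1R values lay within the isotype range except for anti-CSF1R 8, which equalled its lowest library to within 1 CPM. The mean was 225 ± 49.0 CPM under isotype and 211 ± 26.2 CPM under anti-CSF1R (log2 fold change -0.09 ± 0.19, adjusted p 0.723 in edgeR). The sign turned with isotype 2 and 5 only (0.11, adjusted p 0.764 in edgeR) and without isotype 3 (0.06, adjusted p 0.824 in edgeR), and over its 17 alternatives the adjusted p lay between 0.344 and 0.971.

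Ackr4, which scavenges Ccl19, Ccl21 and Ccl25, measured 47.0, 68.9, 55.8 and 36.0 CPM under isotype and 53.3, 58.5, 51.9 and 49.1 CPM under anti-CSF1R (0.03 ± 0.20, adjusted p 0.906 in edgeR). Of its exon bases in GENCODE M21, 8.90% are shared with Acad11 on the opposite strand. Ackr1, the Duffy receptor of venules and red cells, stood at 2.03 to 3.00 CPM under isotype and 2.49 to 3.46 CPM under anti-CSF1R (0.20 ± 0.20, adjusted p 0.473 in edgeR). Of its exon bases 25.7% are shared with Cadm3 on the same strand. Of 8 endothelial markers, 0 were called by edgeR, 1 by DESeq2, and 4, all higher, had an unadjusted p under 0.05 in edgeR. Their sum was 463 to 517 CPM under isotype and 592 to 680 CPM under anti-CSF1R, without overlap. The part of this in the values of Ackr1 and Ackr3 was not tested.

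Per kb of the longest GENCODE M21 transcript, levels of different genes can be compared roughly. That length need not be the one counted over. All exons of Ackr4 cover 5380 bases and its longest transcript 2698, and those of Ccl25 7445 and 2549, so close ranks may depend on the length chosen. Ackr3 was the highest member at 71.0 ± 12.1 CPM per kb (SD, n = 8). Its lowest library (56.9) was above the highest of Ackr4 (25.5). Under isotype Ccl9 had rank 2 at 21.5 CPM per kb, ahead of Ackr4 at 19.2. With isotype 2 and 5 only the order of Ccl9 and Ackr4 was reversed. In those libraries Ccl9 (3006 bases) stood at 40.5 and 47.0 CPM, and Ackr4 (2698 bases) at 47.0 and 36.0 CPM. Under anti-CSF1R Ccl9 had rank 3 at 4.94, close to Cxcr4 at 4.94 and Ccl25 at 4.80. Ccr1 went from rank 4 with isotype (11.3 CPM per kb) to rank 6 with anti-CSF1R (3.81 CPM per kb). Of the tested members 16 had a mean of at least 1 CPM and 7 a mean of at least 10 CPM. The same 10 genes led the order whether the mean or the median over libraries was used.

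**Figure D3:**
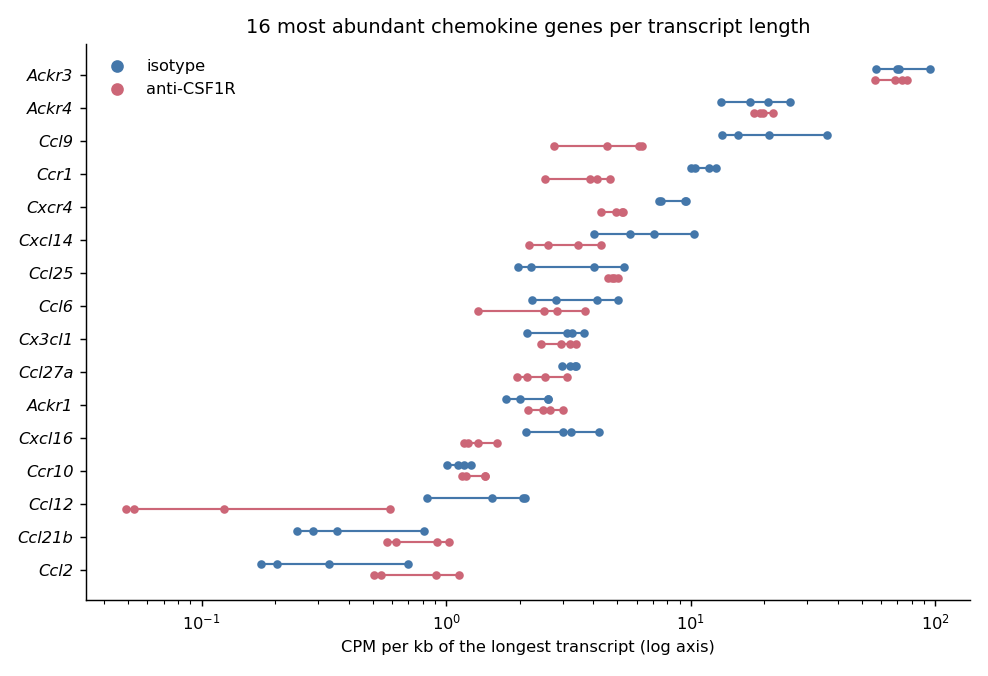
CPM per kb of the longest GENCODE M21 transcript (log axis) in each isotype (blue) and anti-CSF1R (red) library for the 16 members with the highest mean on this scale, each line spanning the lowest to the highest library. Ackr3 and Ackr4 lead with overlapping groups, and the groups of Ccl9, Ccr1, Cxcr4, Cxcl16 and Ccl12 are apart.

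Many of these genes lie beside each other in the genome, and their values are given here in that order. In the RefSeq gene order of GRCm38.p6, used for order only, Ccl2, Ccl7, Ccl11, Ccl12, Ccl8 and Ccl1 follow each other with no other coding gene between them. Within that run the log2 fold changes were 1.11 for Ccl2, -0.15 for Ccl7, -2.98 for Ccl12 and -2.06 for Ccl8, and Ccl11 and Ccl1 were not tested. In a second run, Ccl5, Ccl9, Ccl6, Ccl3 and Ccl4, they were -0.71 for Ccl5, -2.12 for Ccl9 and -0.45 for Ccl6, with the other two not tested. Among the receptors, Xcr1 (0.68), Ccr1 (-1.56) and Ccr3 (-0.77) follow in that order, with the untested Ccr1l1 after Ccr1. The differences between neighbours were not tested. With isotype 2 and 5 only the values were 0.76 for Ccl2, -2.84 for Ccl12, -1.56 for Ccl9, 0.04 for Ccl6, 0.50 for Xcr1 and -1.36 for Ccr3.

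**Figure D4:**
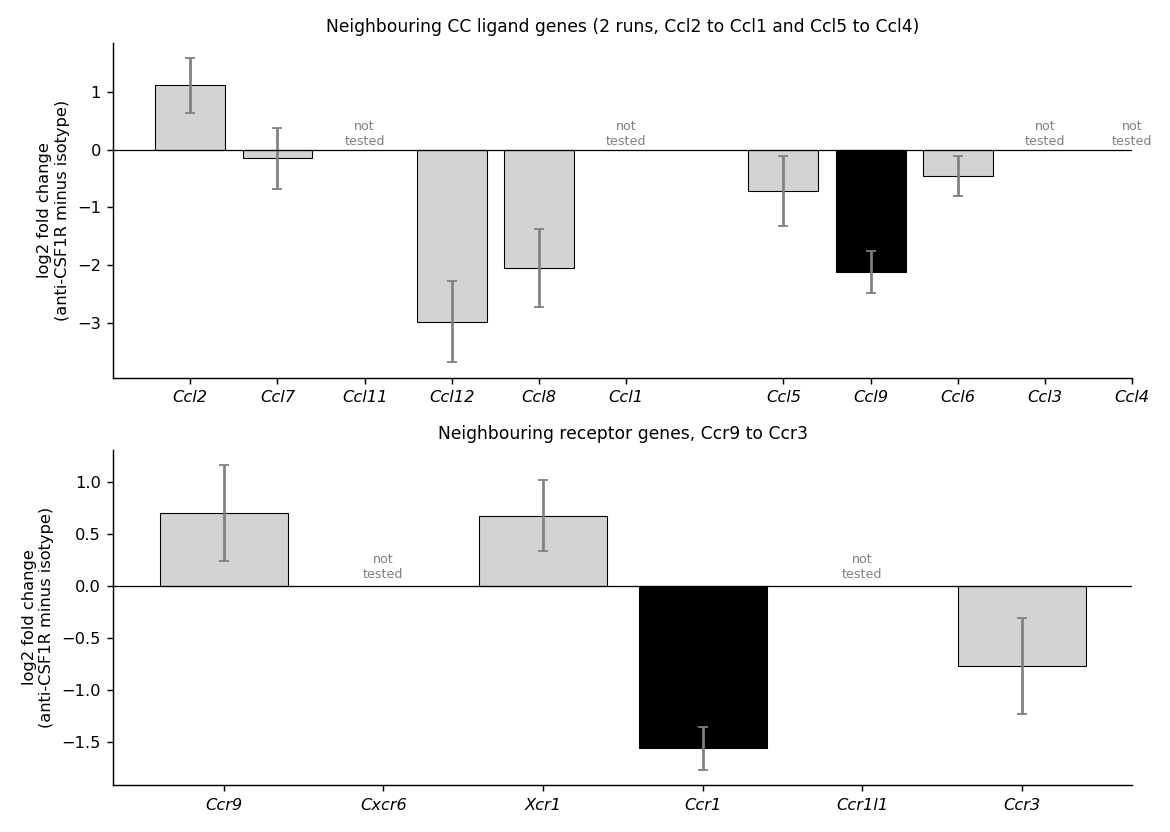
Log2 fold change on all 8 libraries (bar) with its SE for members in genome order, the CC ligands above and the receptors below, black where the edgeR adjusted p was under 0.05. Ccl9 (-2.12) stands between Ccl5 (-0.71) and Ccl6 (-0.45), and Ccr1 (-1.56) follows Xcr1 (0.68).

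The 9 tested members not named by the rule had at most 1.37 CPM in any library, log2 fold changes of -1.48 to 0.85 and edgeR adjusted p-values of 0.278 or more. They were Ccl5, Ccl7, Ccl21b, Ccl22, Cxcl10, Ccr7, Ccr9, Xcr1 and Ackr2. Ccl22, a ligand of dendritic cells and macrophages, was the lowest of them at -1.48 ± 0.69, with 18 to 40 counts in the isotype libraries, 12 to 28 in anti-CSF1R 7, 8 and 9 and 0 in anti-CSF1R 10. Ccr9, like Ccl25 and Ccl28, had its lowest values in isotype 3 and 4. Of the 30 tested members 15 had their highest value of the 8 libraries in isotype 3 and 9 their lowest in anti-CSF1R 10. Of the same 30, 24 had 1 sign in the fit on all libraries, the offset fit and the fit with isotype 2 and 5 only. These counts were not made over all genes tested, so they show no trait particular to the members.

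Of 41 genes of chemokine signalling whose symbols do not make them members, 40 were tested. These were platelet chemokines, further receptors, G proteins, receptor kinases, arrestins and the kinases and guanine exchange factors that act on migration. The platelet chemokines and Cx3cr1, a chemokine receptor, are in this list by symbol alone. Among them 3 fell and 0 rose, beside 0.822% and 0.0235% of all genes, and the median log2 fold change was -0.25, beside 0.03. At an unadjusted p under 0.05, 14 were lower and 0 higher, beside 12.6% and 5.26% of all genes. DESeq2 called 10 lower and 0 higher, beside 3.69% and 0.869%. Cx3cr1, the fractalkine receptor of resident macrophages and monocytes, measured 10.2, 9.09, 17.1 and 14.8 CPM under isotype and 3.20, 4.61, 3.61 and 2.08 CPM under anti-CSF1R, a fall of 3.79-fold (-1.92 ± 0.30, adjusted p 0.0267 in edgeR). Plcb2, the phospholipase that chemokine receptors activate in myeloid cells, measured 16.3, 25.4, 24.2 and 15.8 CPM under isotype and 8.42, 7.82, 8.68 and 4.87 CPM under anti-CSF1R (-1.46 ± 0.25, adjusted p 0.0356 in edgeR). Grk3, a kinase that switches off activated G protein-coupled receptors, measured 60.5, 37.2, 60.8 and 57.4 CPM under isotype and 24.3, 25.987, 25.01 and 19.0 CPM under anti-CSF1R (-1.19 ± 0.20, adjusted p 0.0318 in edgeR). The groups of these 3 genes did not overlap, and all 3 were also called with isotype 2 and 5 only, at -1.88, -1.11 and -1.32 for Cx3cr1, Plcb2 and Grk3 (adjusted p 0.0165 in edgeR, 0.0296 and 6.80e-04). Over 17 alternatives their adjusted p ran from 2.46e-08 to 0.131. The number of pathway genes called was 0 by edgeR without isotype 4 or any of anti-CSF1R 7, 8, 9 and 10 (11, 11, 12, 12 and 13 had an unadjusted p under 0.05, beside 9.57%, 11%, 9.29%, 9.15% and 9.29% of all genes). Those fits called 0.203%, 0%, 0%, 0.0232% and 0.0813% of all genes. The number was 6 without isotype 2 or isotype 5, beside 1.51% and 1.36% of all genes.

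The most abundant genes of that list did not pass. Gnai2, the G protein subunit that most chemokine receptors use, averaged 532 ± 210 CPM under isotype and 352 ± 8.75 CPM under anti-CSF1R, with its highest levels in isotype 3 and 4 (814 and 570 CPM). Its log2 fold change went from -0.60 ± 0.26 (adjusted p 0.278 in edgeR) to -0.08 with isotype 2 and 5 only. Prex1 and Gnb1, a Rac exchange factor and a G protein beta subunit, had log2 fold changes of -0.37 ± 0.19 and -0.08 ± 0.12 (adjusted p 0.289 in edgeR and 0.655).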

How the data were processed

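Parietal bone RNA was sequenced in 8 libraries made with a stranded mRNA kit, 4 isotype and 4 anti-CSF1R, grouped and numbered by their titles. The authors deposited raw counts for each gene symbol. The submitters' processing notes list STAR 2.7.10b and featureCounts 1.6.3 and the builds GRCm38 and GRCm39, without saying what each was used for. Annotation, strand setting and treatment of multi-mapping reads: not given in the sources used here. Of counts no higher than 10, 82.8% to 84.7% were even, so 1 fragment may stand as 2 counts and the depth in fragments may be lower than the totals. Between libraries of 1 group the median squared difference in counts was at least 3.92 times that of counting noise (8632 genes), so no library was counted as a copy.

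The table was fitted whole with edgeR 4.0.16 in R 4.3.3: filterByExpr with a minimum count of 10 (17028 genes), TMM factors, robust quasi-likelihood F-test, Benjamini-Hochberg adjustment over all genes tested and a threshold of 0.05. The SE is the size of the log2 fold change divided by the square root of F. The main edgeR fit and the offset fit were also run on simulated counts with a common dispersion and no GC bias, unlike these libraries. Alternatives were DESeq2 1.42.0, limma-voom (limma 3.58.1), RLE factors, no scaling beyond library size, no filter, 1 CPM in 4 libraries, each library left out, isotype 2 and 5 only, halved counts, and an offset from natural splines (5 degrees of freedom) of GC content and length, which 94.0% of tested genes had.

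The members, lists and alternatives were chosen with earlier results of these data known. Named members are Ccl9 and Ackr3, those called on all libraries, with isotype 2 and 5 only or with the offset, those whose groups do not overlap, and the up to 3 most abundant per role group (7 groups). Of the pathway list, called genes and the 3 next most abundant are named. 4 rows with chemokine symbols are not reported here.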

Additional observations from a re-analysis of the deposited data

Results flagged for a closer look

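Among 58 groups of 4 values, 1 for each named gene and treatment with counts above the floor, 4 held a library far from the other 3, by Dixon's criterion. Chance flags about 1 in 20 groups. Ccl12 in anti-CSF1R 9 stood at 0.317 CPM against 0.0264 to 0.0660 CPM in the other anti-CSF1R libraries. Cxcl2 in anti-CSF1R 7 stood at 0.170 CPM, on 12 counts, against 0 to 0.0288 CPM. Cxcr3 in isotype 2 stood at 0.0958 CPM, on 6 counts, against 0.330 to 0.344 CPM in the other isotype libraries. Grk3 in isotype 3 stood at 37.2 CPM against 57.4 to 60.8 CPM, and was still above every anti-CSF1R library.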

How the results depend on the processing

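The number of members called was 2 of 30 on all libraries. It was 1 of 30 with library size alone, 4 of 36 with isotype 2 and 5 only, 5 of 30 with the GC and length offset and 7 of 30 with DESeq2. Over all genes, 0.822% were called lower on all libraries, 2.38% with isotype 2 and 5 only, 2.34% with the offset and 3.69% with DESeq2. With library size alone 0.576% were called in either direction. Leaving out each library gave 0 to 3 of the 31 to 35 members tested. The number in edgeR was 0 without anti-CSF1R 7, 8 or 9 (0, 0 and 4 genes of the whole table, and 8, 10 and 9 members at an unadjusted p under 0.05). It was 1 without isotype 3, isotype 4 or anti-CSF1R 10 (106, 35 and 14 genes of the whole table), 2 without isotype 5 (234 genes) and 3 without isotype 2 (260 genes). The number of pathway genes called, 3 of 40 on all libraries, was 1 with library size alone, 6 with isotype 2 and 5 only, 7 with the offset, 10 with DESeq2 and 0 to 6 without each library. Genes of the whole table called in either direction were 144 on all libraries, and 98, 536, 469, 777 and 0 to 260 in those fits. Ccl9 lost its call with library size alone (log2 fold change -1.91, adjusted p 0.0596 in edgeR) and with isotype 2 and 5 only (-1.56), and ran from -2.32 to -1.75 without each library. Library size alone moved the median of all genes by 0.16.

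Several genes that were not called changed sign. Ackr3 turned to 0.0799 with library size alone, 0.11 with isotype 2 and 5 only and 0.0577 without isotype 3 (range without each library -0.23 to 0.0577). Ackr4 turned to -0.0063 with RLE factors, -0.0062 with DESeq2 and -0.26 with the offset, and to -0.0452, -0.106 and -0.0135 without isotype 2, isotype 5 or anti-CSF1R 8 (range without each library -0.106 to 0.201). Cx3cl1 turned to 0.15 with library size alone and with isotype 2 and 5 only, to 0.26 with the offset, and to 0.0783, 0.0102 and 0.0622 without isotype 3, isotype 5 or anti-CSF1R 10 (range without each library -0.189 to 0.0783). With isotype 2 and 5 only Cxcr5 turned to 0.15 and Ccl6 to 0.0423, and Gnb1 turned to 0.0851 with library size alone. The cause of these changes was not tested. No paired analysis was possible because the groups share no replicate number. The lowest members rest on few counts (12 counts of Cxcl2 were 0.170 CPM), so only large differences in them were detectable at this depth.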
